A study of Homo sapiens with 6 samples.

Results

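The genes described here are 10 that build or regulate contacts between epithelial cells: the cadherins CDH1, CDH2, CDH6 and CDH16, the tight junction genes CLDN1, OCLN and TJP1, and the transcription factors ZEB1, ZEB2 and SNAI2 of the epithelial-mesenchymal transition (EMT). They were taken by gene symbol from the table of gene counts, and all 10 had a row among its 62754 genes. RNA was sequenced from HK-2 cells, a human proximal tubule epithelial line, to ask how the loss of NAT10, an RNA acetyltransferase, changes gene expression in cells given Cisplatin. The 3 CP+siNC libraries came from cells treated with Cisplatin and a negative control siRNA, and the 3 CP+siNAT10 libraries from cells treated with Cisplatin and an siRNA against NAT10. Every library was Cisplatin-treated, and the labels give neither a dose nor a time. The siRNA sequence is not in the labels either. The total counts were 19321665, 21602988 and 19464027 in CP+siNC and 20793709, 21531774 and 25192736 in CP+siNAT10. Nothing in the labels states that the replicates were separate cultures, so the p-values measure only the spread between these libraries, which may be technical.

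Cadherins are calcium-dependent adhesion proteins that join neighbouring cells at adherens junctions and are anchored to actin through catenins. Claudins and occludin seal the space between epithelial cells at tight junctions, where zonula occludens proteins such as the product of TJP1 hold them to the cytoskeleton. ZEB and SNAIL proteins repress epithelial genes such as CDH1 by binding short E-box motifs, and the proximal tubule is known for carrying N-cadherin and cadherin-6 where other tubule segments carry E-cadherin.

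The targeted gene was read first. Levels are given as CPM, the counts of a gene per 1000000 counts of its library after scaling. NAT10 stood at 75.8, 71.4 and 73.2 CPM in the CP+siNC libraries and at 41.3, 40.5 and 42.4 CPM in the CP+siNAT10 libraries. Every CP+siNAT10 library lay below every CP+siNC library, in the direction the labels give. The log2 fold change was -0.82 (SE 0.0426), with an adjusted p of 2.79e-15 by edgeR's quasi-likelihood test (Benjamini-Hochberg), which left 56.4% of the control level.

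Of the 10 genes, 9 had enough counts to be tested and 6 were called, which here means an adjusted p below 0.05. In CP+siNAT10, 5 of these were higher and 1 was lower. Over all 19874 genes tested, 44.1% were called, 21.8% higher and 22.3% lower. The median log2 fold change of the 9 tested genes was 0.20, against 0.01 over all genes tested. CLDN1 was the 1 gene of the 9 called with a change of over 1 on the log2 scale, as were 2.33% of all tested genes. In bulk RNA, fewer cells of a type and less RNA per cell cannot be told apart.

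**Figure D1:**
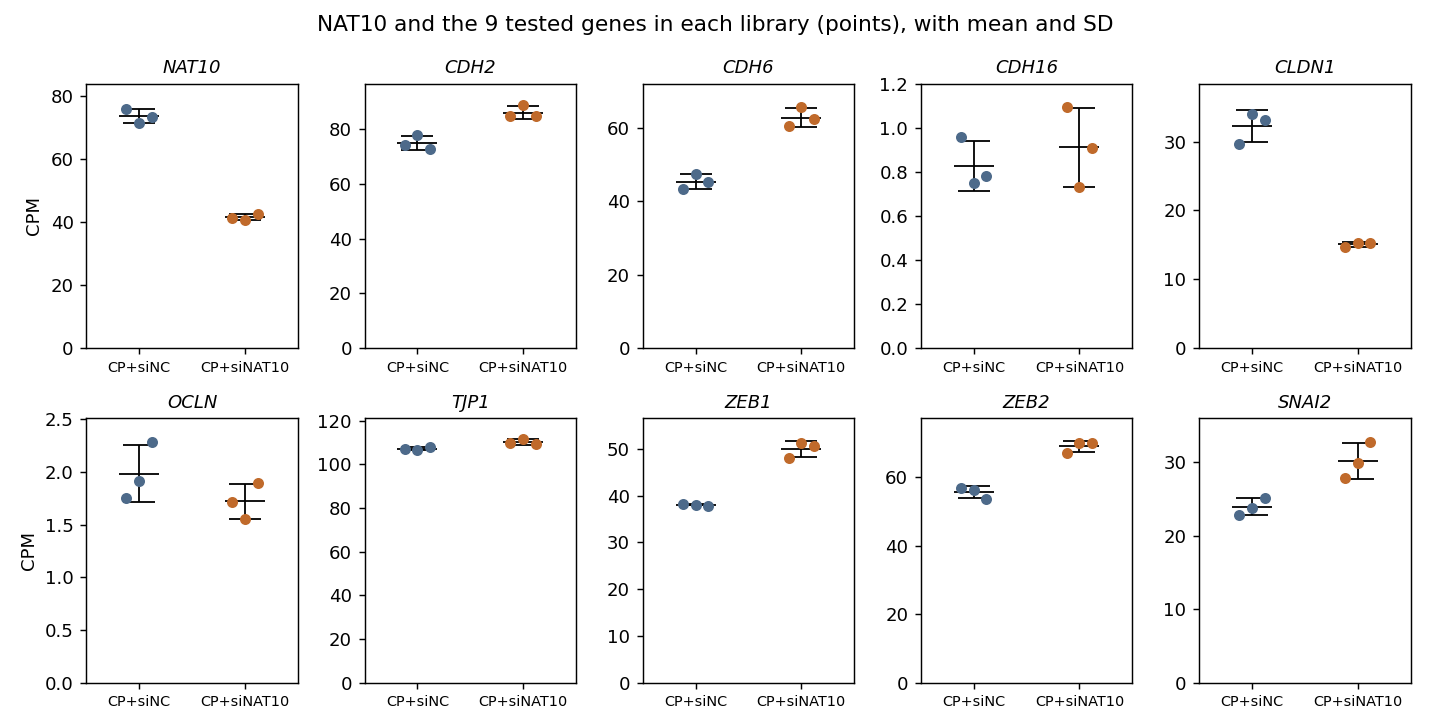
Level in CPM (vertical axis, from 0) of NAT10 and the 9 tested genes in each of the 3 CP+siNC and 3 CP+siNAT10 libraries, with points for libraries, long lines for means and bars for the SD. CLDN1 fell from a mean of 32.3 to 15.1 CPM, while CDH6 rose from 45.4 to 62.8 CPM.

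CDH1 encodes E-cadherin, the main cadherin of most epithelia. It had 2, 1 and 0 counts in the CP+siNC libraries and 1, 1 and 1 in the CP+siNAT10 libraries. The gene was therefore low in every library, without 10 counts in any of them, and was not tested. The sum was 3 counts in each group, with an exact 95% Poisson interval of 0.619 to 8.77 that covers counting error only. A difference between the groups was not detectable at this depth.

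CDH2 (ENSG00000170558; GRCh38 chromosome 18, 27932879 to 28177946) encodes N-cadherin. Its level was 74.5, 78.0 and 73.0 CPM in CP+siNC and 85.0, 88.8 and 84.8 CPM in CP+siNAT10. All CP+siNAT10 libraries were above all CP+siNC libraries. The rise was small, with a log2 fold change of 0.20 (SE 0.0392) and an adjusted p of 0.000141 by edgeR's quasi-likelihood test (Benjamini-Hochberg), and 52.5% of all tested genes had a larger change in size.

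CDH6 (ENSG00000113361; chromosome 5, 31193686 to 31329146) encodes cadherin-6, also called K-cadherin, which is expressed in the developing and adult proximal tubule. The CP+siNC libraries held 43.3, 47.4 and 45.3 CPM and the CP+siNAT10 libraries 60.5, 65.6 and 62.4 CPM. The groups did not overlap, and CDH6 had the largest rise among the 9 tested genes. Its log2 fold change was 0.47 (SE 0.0455), with an adjusted p of 1.35e-09 by edgeR's quasi-likelihood test (Benjamini-Hochberg).

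CDH16 encodes kidney-specific cadherin, found on the basolateral side of tubule cells. It was near the limit of the test, with 18, 16 and 15 counts in CP+siNC and 23, 16 and 23 in CP+siNAT10. The groups overlapped. The 95% interval of its log2 fold change ran from -0.43 to 0.71 around 0.14, and the adjusted p of edgeR's quasi-likelihood test (Benjamini-Hochberg) was 0.722.

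Among all 23 genes with a CDH number in the table, 6 were tested, of which 3 were called higher, 1 was called lower and 2 were not called. Their median log2 fold change was 0.17. CDH17, a cadherin of the gut and liver, rose from 1.55 to 3.43 CPM (log2 fold change 1.15, SE 0.185). CDH23, a cadherin of inner ear hair cells, fell by 0.59 on the log2 scale from 1.46 CPM, with an adjusted p of 0.0391 by edgeR's quasi-likelihood test (Benjamini-Hochberg). That call was lost with DESeq2 (adjusted p = 0.166), with scaling by library size alone, with no filter on low counts, and without any 1 of CP+siNC replicates 1 and 2 and CP+siNAT10 replicates 1, 2 and 3, and over those 5 losses from 1 library the adjusted p of edgeR's quasi-likelihood test (Benjamini-Hochberg) lay between 0.0656 and 0.125. Another 17 were too low to test, and 5 of them, CDH7, CDH9, CDH10, CDH12 and CDH19, had no counts. CDH3, which encodes the P-cadherin of many epithelia, had 0 counts over CP+siNC and 2 over CP+siNAT10.

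CLDN1 (ENSG00000163347; chromosome 3, 190305707 to 190322446) encodes claudin-1, a sealing claudin that limits passage between cells. It was at 29.7, 34.0 and 33.2 CPM in CP+siNC and at 14.7, 15.3 and 15.3 CPM in CP+siNAT10. All 3 CP+siNAT10 libraries were below all CP+siNC libraries, and the mean was 46.7% of the control mean. The log2 fold change was -1.10 (SE 0.0615, 95% interval -1.22 to -0.97), with an adjusted p of 1.67e-14 by edgeR's quasi-likelihood test (Benjamini-Hochberg). Of all tested genes, 1.60% changed by more.

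OCLN encodes occludin, a membrane protein of the tight junction strand. The libraries held 33, 41 and 44 counts in CP+siNC and 36, 34 and 48 in CP+siNAT10. These counts overlapped, and in CPM the mean was 1.98 ± 0.273 (SD, n = 3) in CP+siNC and 1.72 ± 0.169 in CP+siNAT10. OCLN was not called (log2 fold change -0.20, 95% interval -0.59 to 0.19, adjusted p of 0.426 by edgeR's quasi-likelihood test (Benjamini-Hochberg)).

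TJP1 (ENSG00000104067; chromosome 15, 29699367 to 29968915) encodes ZO-1, the scaffold under the claudin strands. It was at 107, 106 and 108 CPM in CP+siNC and 110, 112 and 109 CPM in CP+siNAT10. The groups did not overlap, but the gap was small. The log2 fold change of 0.04 had a 95% interval of -0.03 to 0.11 and an adjusted p of 0.36 by edgeR's quasi-likelihood test (Benjamini-Hochberg), so TJP1 was not called. The pseudogene HMGN2P5 lies within TJP1 on the opposite strand with a mean of 977.5 counts, beside 2316 for TJP1, and whether the counting used the strand of the reads is not given in the sources used here.

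**Figure D2:**
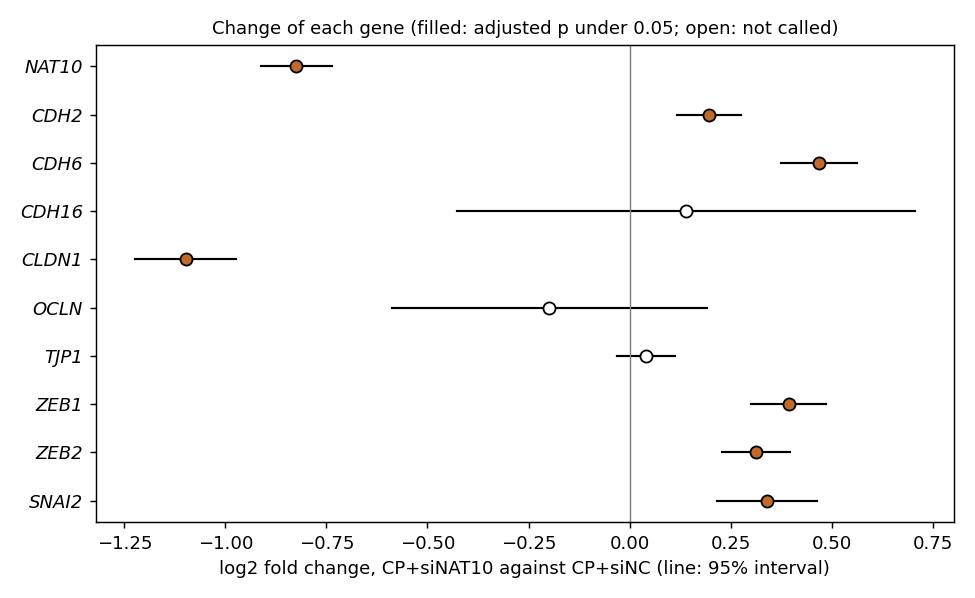
Log2 fold change of NAT10 and the 9 tested genes in CP+siNAT10 against CP+siNC (horizontal axis), with points for estimates, filled where called, and lines for 95% intervals. The interval of TJP1 runs from -0.03 to 0.11, and those of CDH16 and OCLN are wide and cross 0.

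ZEB1 (ENSG00000148516; chromosome 10, 31318495 to 31527294) encodes a zinc finger repressor of CDH1. It held 38.2, 38.1 and 37.9 CPM in CP+siNC and 48.1, 51.2 and 50.7 CPM in CP+siNAT10. The groups were far apart relative to the spread within each. ZEB1 rose with a log2 fold change of 0.39 (SE 0.0453) and an adjusted p of 3.16e-08 by edgeR's quasi-likelihood test (Benjamini-Hochberg).

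ZEB2 (ENSG00000169554; chromosome 2, 144364364 to 144521057) encodes the related repressor SIP1. Its values were 56.8, 56.4 and 53.5 CPM in CP+siNC and 67.2, 69.9 and 69.9 CPM in CP+siNAT10, again without overlap. The log2 fold change was 0.31 (SE 0.0413), with an adjusted p of 3.60e-07 by edgeR's quasi-likelihood test (Benjamini-Hochberg). Antisense genes lie across both ZEB genes, but ZEB1-AS1 held a mean of 36.7 counts beside 947 for ZEB1, and ZEB2-AS1 held 14.8 beside 1337 for ZEB2. Unnamed genes on the opposite strand of CDH2 and CDH6 held 34.8 and 41.5, beside 1726 for CDH2 and 1166 for CDH6.

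SNAI2 (ENSG00000019549) encodes SLUG, a zinc finger repressor that binds E-boxes. It was at 22.8, 23.7 and 25.1 CPM in CP+siNC and at 27.8, 29.8 and 32.7 CPM in CP+siNAT10. All CP+siNAT10 libraries were higher. The log2 fold change was 0.34 (SE 0.0603), with an adjusted p of 3.36e-05 by edgeR's quasi-likelihood test (Benjamini-Hochberg).

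The wider list of 13 EMT transcription factors had 8 tested genes, of which 4 rose (TCF3, ZEB1, SNAI2 and ZEB2) and 1 fell (TWIST1), with a median log2 fold change of 0.14. TCF3, the E2A protein that binds E-boxes, rose most, from 50.6 to 80.0 CPM (log2 fold change 0.66, SE 0.0438). TWIST1, the most abundant of the list per length in CP+siNC at 11.5 CPM per kilobase, fell by 0.21 on the log2 scale. That call was lost without CP+siNAT10 replicate 2, where the log2 fold change was -0.13, with an adjusted p of 0.102 by edgeR's quasi-likelihood test (Benjamini-Hochberg). SNAI1, the gene of SNAIL, was not called at 13.1 and 12.7 CPM in CP+siNC and CP+siNAT10. TWIST2 had no counts.

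Promoter sequences from RefSeq (GRCh38.p14) were searched for the E-box words CACCTG and CAGGTG, which are the same site read on either strand and are bound by ZEB and SNAIL proteins. Each window holds 250 bases before and 50 after an annotated start, and a gene can have several. A window was present for 6 of the 10 genes, CDH2, ZEB1, ZEB2, TJP1, OCLN and CLDN1, and not for CDH1, CDH6, CDH16 and SNAI2. Of their 17 windows, 5 (29.4%) held an E-box, beside 20.6% of all 35116 windows in the table. They were 2 of 7 windows of ZEB1, 1 of 4 of TJP1 and 2 of 2 of OCLN. The window of CLDN1, on the minus strand at chr3:190322397-190322696, is shown because CLDN1 changed most. The window of ZEB1, on the plus strand at chr10:31318966-31319265, is shown because it held 3 E-boxes, the most among the 17 windows. That number was reached by 0.635% of all windows, a share that does not allow for picking the highest of 17. Both windows run 5′ to 3′ in lower case, and capitals mark the E-boxes. A match is a description of these letters and not evidence of binding.
CLDN1: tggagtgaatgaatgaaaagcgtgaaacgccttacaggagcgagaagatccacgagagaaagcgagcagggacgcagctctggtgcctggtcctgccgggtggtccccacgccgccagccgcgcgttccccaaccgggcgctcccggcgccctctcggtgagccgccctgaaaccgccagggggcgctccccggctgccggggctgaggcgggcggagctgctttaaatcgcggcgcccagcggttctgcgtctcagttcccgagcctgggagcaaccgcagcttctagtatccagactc
ZEB1: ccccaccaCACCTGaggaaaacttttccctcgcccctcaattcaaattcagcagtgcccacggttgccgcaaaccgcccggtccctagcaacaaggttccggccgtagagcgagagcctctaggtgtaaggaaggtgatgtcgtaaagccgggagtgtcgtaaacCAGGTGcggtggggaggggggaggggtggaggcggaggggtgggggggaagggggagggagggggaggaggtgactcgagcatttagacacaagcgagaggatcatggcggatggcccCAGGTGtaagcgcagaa

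Levels of different genes were ranked only per length, as CPM per kilobase of gene length. Shares of the summed CPM of a list, given elsewhere, are not divided by length. In CP+siNC the order of means was TJP1 9.47, CLDN1 8.90, CDH2 8.76, SNAI2 7.28, ZEB1 4.40, CDH6 3.65, ZEB2 2.12, CDH16 0.231, OCLN 0.176 and CDH1 0.0084. The libraries of CLDN1 and CDH2 overlapped, so their order is not set beyond the spread. In CP+siNAT10 CLDN1 was at 4.16, below CDH2 at 10.04, TJP1 at 9.74, SNAI2 at 9.18, ZEB1 at 5.78 and CDH6 at 5.05. There the libraries of CDH2 overlapped those of TJP1, and the libraries of SNAI2 overlapped both. CLDN1 thus went from rank 2 to rank 6 of the 10 genes, while ZEB2, CDH16, OCLN and CDH1 held the ranks 7 to 10 in both groups. The order rests on the gene lengths deposited with the counts, such as 26151 bases for ZEB2 and 8650 for ZEB1.

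**Figure D3:**
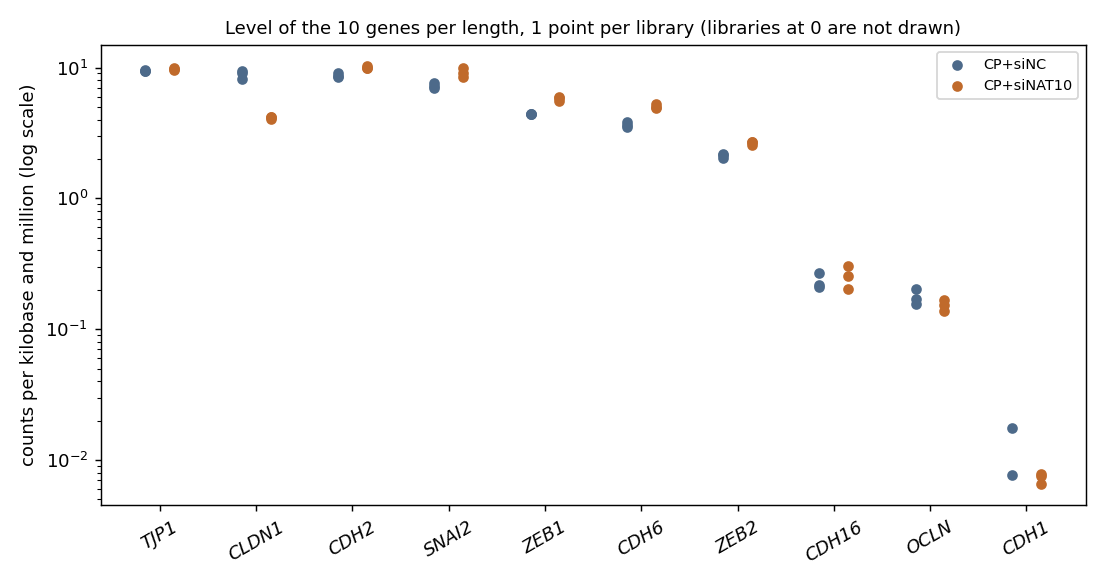
Level per length of the 10 genes in CPM per kilobase (vertical log axis), with 1 point for each library of CP+siNC and CP+siNAT10. CDH1, at a mean of 0.0084 in CP+siNC, lies far below the other genes, and its library without counts is not drawn.

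The catenins and nectins, which tie cadherins to actin and form adhesions of their own, had 9 tested genes of 14. Of these 4 were called higher (NECTIN1, CTNNA1, CTNND1 and VCL) and 3 lower (NECTIN2, NECTIN3 and CTNNB1), with a median log2 fold change of -0.04. The counts of every list here stand beside 44.1% called over all tested genes, 21.8% higher and 22.3% lower. NECTIN1 rose from 4.58 to 9.34 CPM (log2 fold change 1.03, SE 0.108) and NECTIN3 fell from 22.5 to 15.3 CPM (log2 fold change -0.55, SE 0.0629). CTNNA1, the gene of alpha-catenin, rose from 149 to 198 CPM (log2 fold change 0.41, SE 0.0327). VCL, the gene of vinculin, was the most abundant per length in CP+siNC and CTNNA1 in CP+siNAT10. The small VCL call was lost with DESeq2, with upper quartile scaling and without any 1 of CP+siNC replicates 1 and 3 and CP+siNAT10 replicates 1 and 2, and leaving out those libraries gave adjusted p between 0.0549 and 0.147 by edgeR's quasi-likelihood test (Benjamini-Hochberg). The call of CTNND1, the gene of p120-catenin, was lost with DESeq2 and without any 1 of CP+siNC replicate 3 and CP+siNAT10 replicates 2 and 3, which gave adjusted p between 0.0608 and 0.203 by edgeR's quasi-likelihood test (Benjamini-Hochberg). CTNNB1, the gene of beta-catenin, fell by 0.10 on the log2 scale, a call lost without CP+siNAT10 replicate 1 (edgeR's quasi-likelihood test (Benjamini-Hochberg), adjusted p = 0.0820), with no filter and with scaling by library size alone, where the log2 fold change was -0.06.

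Of 24 claudins 8 were tested, and none of these was called higher, 3 were lower and 5 were not called, with a median log2 fold change of -0.12. Beside CLDN1, CLDN12 fell from 37.2 to 31.9 CPM (log2 fold change -0.22, SE 0.0492). CLDN2, the gene of a claudin that forms a cation and water pore in the proximal tubule, fell from 2.87 to 2.09 CPM (log2 fold change -0.45, SE 0.173). The CLDN2 call was lost with DESeq2, with scaling by library size alone and without any 1 of CP+siNC replicate 2 and CP+siNAT10 replicates 1 and 2, and leaving out those libraries gave adjusted p between 0.104 and 0.219 by edgeR's quasi-likelihood test (Benjamini-Hochberg). CLDN11 had the highest level per length over both groups and was not called, with 35.1 and 34.8 CPM.

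The tight junction scaffolds and other membrane proteins had 19 tested genes of 22, with 7 higher, 4 lower, 8 not called and a median log2 fold change of 0.06. CGNL1, which encodes paracingulin, rose from 40.8 to 64.9 CPM (log2 fold change 0.67, SE 0.045). MAGI3 rose by 0.43 on the log2 scale. YBX3, a partner of ZO-1, was the most abundant per length and rose by 0.20 on the log2 scale. The genes named in this paragraph all rose, and the 4 called lower are not named.

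Polarity proteins of the Par, Crumbs and Scribble complexes place the junctions along the cell side. Among 13 tested genes of 18, 2 were higher, 6 were lower and 5 were not called, with a median log2 fold change of -0.18. The count of called genes, 8, was 7 with DESeq2, with RLE or upper quartile scaling, with no filter and with the replicate block. Leaving out 1 library gave 6 to 8, with 6 reached without CP+siNC replicate 3. PARD6B, a subunit of the Par complex, fell from 24.8 to 11.7 CPM (log2 fold change -1.09, SE 0.0663). CRB3 fell by 0.47 on the log2 scale, and PARD3 rose by 0.43. PRKCI, the atypical protein kinase C of the complex, was the most abundant per length and fell by 0.18.

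Desmosomes anchor keratin filaments. Of 13 desmosome genes 8 were tested, with 2 higher (PERP and PKP4), 3 lower (DSC2, DSG2 and DSP) and a median log2 fold change of -0.13. DSP, which encodes desmoplakin and carried 75.7% of the summed CPM of the list, fell from 754 to 620 CPM (log2 fold change -0.28, SE 0.0328). DSC2 fell by 0.63 on the log2 scale, and PERP rose by 0.39. The PKP4 call was lost without CP+siNAT10 replicate 2 (adjusted p = 0.0710 by edgeR's quasi-likelihood test (Benjamini-Hochberg)).

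**Figure D4:**
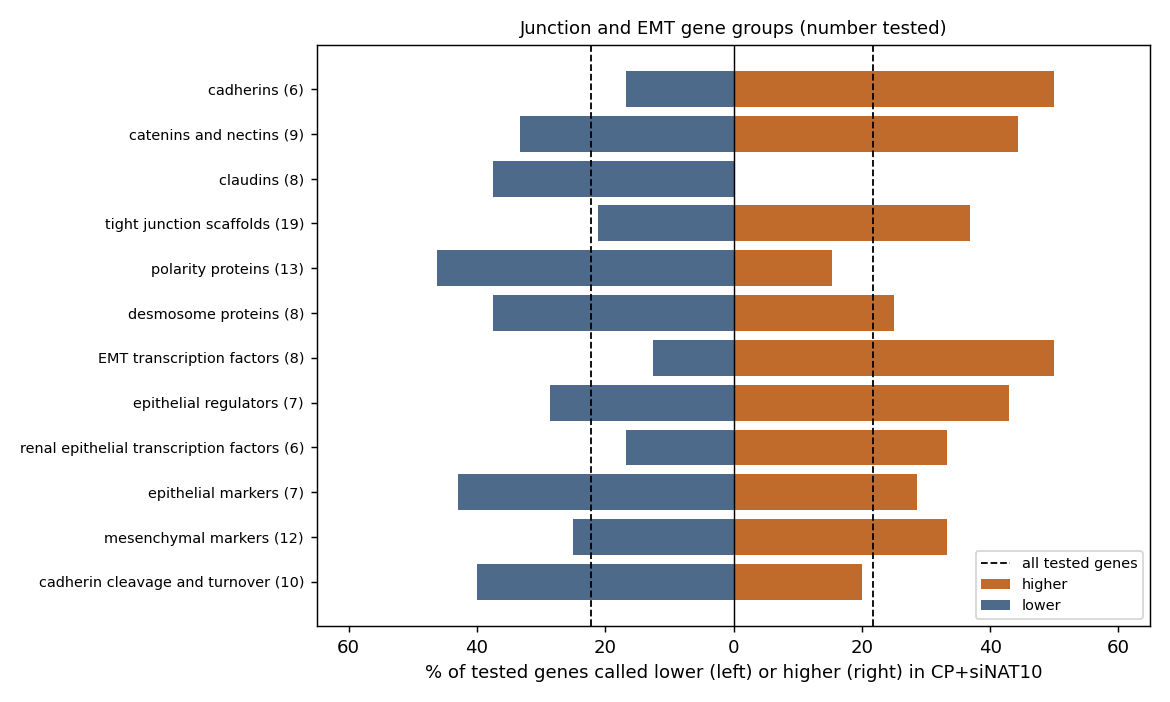
Share of the tested genes of each group called lower (left) or higher (right) in CP+siNAT10 in percent (horizontal axis), with the number tested in brackets and dashed lines for all tested genes at 22.3% and 21.8%. Of the 8 tested claudins none was called higher and 37.5% were lower, and 50% of the 8 tested EMT transcription factors were higher.

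The epithelial regulators, transcription and splicing factors of epithelial cells, had 7 tested genes of 11, with 3 higher (GRHL1, GRHL3 and ELF3), 2 lower (KLF5 and ESRP2) and a median log2 fold change of -0.05. KLF5 fell from 47.5 to 35.0 CPM (log2 fold change -0.44, SE 0.0506), and ESRP2, a splicing factor of epithelial isoforms, fell from 12.6 to 9.53 CPM (log2 fold change -0.40, SE 0.0829). KLF5 was the most abundant per length in CP+siNC and ELF3 in CP+siNAT10, and ELF3 rose by 0.29 on the log2 scale. GRHL1 was higher at 1.69 against 1.12 CPM, a call lost with DESeq2 and without any 1 of the CP+siNC replicates 1, 2 and 3 and CP+siNAT10 replicates 1 and 3, at adjusted p between 0.0519 and 0.213 by edgeR's quasi-likelihood test (Benjamini-Hochberg). GRHL3, at 0.287 and 0.634 CPM in CP+siNC and CP+siNAT10, lost its call without any 1 of CP+siNC replicates 2 and 3 and CP+siNAT10 replicate 3, at adjusted p between 0.0557 and 0.137 by edgeR's quasi-likelihood test (Benjamini-Hochberg), and had no adjusted p with DESeq2. The list had 3 called genes in place of 5 without any 1 of CP+siNC replicates 2 and 3 and CP+siNAT10 replicate 3. ESRP1 had 2 counts over CP+siNC and 0 over CP+siNAT10, and GRHL2 had 0 and 2.

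The renal epithelial transcription factors had 6 tested genes of 8, with 2 higher, 1 lower and a median log2 fold change of 0.05. PAX8 rose from 31.4 to 47.2 CPM (log2 fold change 0.59, SE 0.0574), and LHX1, the most abundant per length, rose by 0.20 on the log2 scale. The 1 gene called lower is not named here.

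Among epithelial markers 7 of 8 were tested, with 2 higher (CD24 and EPCAM), 3 lower (KRT7, KRT18 and MUC1) and a median log2 fold change of 0.00. KRT18 fell from 346 to 269 CPM (log2 fold change -0.36, SE 0.0329), while KRT8, its partner in keratin filaments, held 69.98% of the summed CPM of the list and was not called. CD24 rose by 0.38 on the log2 scale. MUC1 fell by 0.40, a call lost with DESeq2 and without CP+siNC replicate 2 (adjusted p = 0.0584) or CP+siNAT10 replicate 3 (adjusted p = 0.136) by edgeR's quasi-likelihood test (Benjamini-Hochberg).

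Genes commonly measured as mesenchymal went in both directions. Of 17 genes 12 were tested, with 4 higher (FN1, SPARC, COL1A1 and ITGA5), 3 lower (VIM, S100A4 and TWIST1) and a median log2 fold change of -0.02. FN1, the gene of fibronectin, rose from 858 to 1396 CPM (log2 fold change 0.70, SE 0.0333), COL1A1 rose by 0.38 on the log2 scale and SPARC, the most abundant per length, by 0.25. VIM, the gene of vimentin, fell from 449 to 399 CPM (log2 fold change -0.17, SE 0.0319). S100A4 fell by 0.71 from 1.79 CPM, a call lost with DESeq2 and without CP+siNC replicate 1 (adjusted p = 0.0808) or CP+siNAT10 replicate 2 (adjusted p = 0.0673) by edgeR's quasi-likelihood test (Benjamini-Hochberg).

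E-cadherin and other cadherins are cut by sheddases and gamma-secretase and marked for turnover by the ligase CBLL1. Of 11 such genes 10 were tested, with 2 higher (ADAM10 and ADAM15), 4 lower, ADAM17, FURIN and CBLL1 among them, and a median log2 fold change of 0.01. FURIN, which activates the sheddases, fell from 20.5 to 14.5 CPM (log2 fold change -0.51, SE 0.0681). ADAM17 fell by 0.39 on the log2 scale, ADAM15 rose by 0.30, and CBLL1, the most abundant per length, fell by 0.14. The ADAM10 call was lost without CP+siNAT10 replicate 2 (adjusted p = 0.0545 by edgeR's quasi-likelihood test (Benjamini-Hochberg)).

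The cell type label was set against markers. Of 12 proximal tubule markers 4 were tested, and defining ones were nearly absent: SLC22A6 had no counts, LRP2 had 1 over CP+siNC and 2 over CP+siNAT10, and SLC22A8 had 1 and 0. The list summed to 47.7, 47.9 and 45.2 CPM in CP+siNC and 43.1, 40.2 and 42.3 CPM in CP+siNAT10, of which GGT1, its most abundant gene, gave 68.3%. SLC5A2 rose by 0.31 on the log2 scale, SLC3A1 fell by 0.99 and GGT1 fell by 0.28. Distal nephron markers had 3 tested genes of 10, with SCNN1A, the most abundant, higher and AQP3 lower, a sum of 5.61 to 7.27 CPM over the 6 libraries, and no counts of SLC12A3. SCNN1A lost its call with DESeq2 and without CP+siNAT10 replicate 2 (adjusted p = 0.0695 by edgeR's quasi-likelihood test (Benjamini-Hochberg)), which left 1 called gene in that list.

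Markers of other cells were low apart from single genes. Endothelial markers summed to at most 0.561 CPM, PECAM1 was the most abundant, and none of 6 was tested. Fibroblast markers had 3 tested genes of 8 and 1 called, COL1A1, with sums of 22.4, 23.9 and 22.1 CPM in CP+siNC and 23.7, 30.5 and 24.9 CPM in CP+siNAT10, LUM being the most abundant per length, and COL1A2 and DCN had 1 and 2 counts over CP+siNC. Leukocyte markers had 3 tested genes of 6 and sums of 210, 199 and 217 CPM in CP+siNC and 289, 266 and 269 CPM in CP+siNAT10. Of that sum 99.1% was CD68, a lysosomal protein, which rose by 0.40 on the log2 scale, and PTPRC was called higher at a mean of 0.824 against 0.418 CPM. That call was lost with DESeq2 and without any 1 of CP+siNC replicates 1, 2 and 3 and CP+siNAT10 replicate 2, at adjusted p between 0.0719 and 0.404 by edgeR's quasi-likelihood test (Benjamini-Hochberg), and without CP+siNAT10 replicate 2 its log2 fold change was 0.46 in place of 0.96. The list then had 1 called gene. Podocyte markers had 2 tested genes of 4, with PODXL higher and SYNPO, the most abundant, lower, and sums of 67.0 to 72.7 CPM in CP+siNC and 48.4 to 51.9 CPM in CP+siNAT10. The part of these markers in the changes of junction and EMT genes was not tested.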

How the data were processed

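RNA was sequenced from 6 HK-2 libraries, 3 in each group. The authors deposited whole-number gene counts on GRCh38. The submitters' processing notes name Trimmomatic 0.36, STAR 2.5.3a, featureCounts of Subread 1.5.1 and edgeR 3.12.1. Libraries were stranded and carried molecular identifiers, and whether counting used the strand or merged duplicates is not given in the sources used here. The counts were fitted with edgeR 4.0.16 in R 4.3.3 (filterByExpr with a minimum count of 10 and a total of 15, TMM scaling, quasi-likelihood test on group, Benjamini-Hochberg adjustment over 19874 genes). The fit was also run on simulated counts in which only a small share of genes changed, unlike in these data. CPM was taken on the TMM-scaled size of the tested genes, and level per length used the table's gene lengths. SE was the log2 fold change over the root of F. Alternatives used DESeq2 1.42.0, other scalings and filters, a replicate block and leaving out each library. Python 3.11.15 and matplotlib 3.10.9 drew the plots. Counts within groups differed by more than sampling noise, with a chi-square per gene of 1.74 to 2.55, so no library was merged with another.

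The genes and lists were chosen with earlier results of these data known. Named were the 10 genes, NAT10, up to 3 called genes of each list above a mean level of 1 CPM with the largest log2 fold change, and the most abundant gene of each list per length over both groups. Other genes named to complete a count, and VIM, CTNNB1, SNAI1, PTPRC, CDH3, ESRP1 and GRHL2, were chosen after their values were seen. Protein sequences were not used here, and some genes that the rule names are not reported here.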

Additional observations from a re-analysis of the deposited data

How the results depend on the processing

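The 9 tested genes were set against 13 alternatives, and all 115 comparisons that could be made kept the direction and the side of the threshold, as did NAT10 in its 13. CDH16 and OCLN had none under the stricter filter, which leaves them out. Without 1 library CDH16 ranged from 0.00378 to 0.268 and OCLN from -0.280 to -0.0927 on the log2 scale. Of 824 comparisons of NAT10 and the other tested genes that the text or its naming rule takes, 761 did so. The count of called genes, 8771, became 6692 with DESeq2 and 7822 to 8168 without 1 library. Of the called genes 4331 were higher and 4440 lower, and with library size scaling 5050 were higher and 3786 lower. With the replicate block it was 8526, the 6 called genes of the 9 were again 6, and CDH23 and GRHL1 lost their calls. Same-numbered libraries deviated with correlations of 0.0212, 0.0905 and -0.187, and not every library correlated best with its own number. With 3 libraries in each group, these values cannot decide whether the numbers pair the samples. The count of genes called with a change past 1 on the log2 scale, 464, was 711 with no filter and 201 with the stricter one, which test 43353 and 14802 genes. Epithelial regulators had 5 called genes, 3 with the stricter filter, 3 with DESeq2, where GRHL3 had no adjusted p, and 3 to 5 without 1 library. Distal nephron markers had 2, then 1, 1 and 1 to 2, and leukocyte markers 2, then 1, 1 and 1 to 2. Signs turned only for values that were not called: CLDN11 was 0.0217 and KRT8 0.0334 with library size scaling, and KRT8 was 0.00685 with no filter. Without 1 library CLDN11 ranged from -0.0548 to 0.0510, KRT8 from -0.0201 to 0.00404, LUM from -0.108 to 0.127 and SNAI1 from -0.0985 to 0.0516. The cause was not tested. Depth limits CDH1, CDH16 and OCLN, where a small change could not be detected.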
